A study of Mus musculus with 11 samples.

Results

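Nuclear and snoRNA host long noncoding RNAs were followed in cultured mouse mesenchymal stem cells (MSCs, progenitors of bone, fat and cartilage). The members were a fixed list of 9 genes. Malat1 and Neat1 stay in the nucleus, and Gas5, Zfas1, Snhg1, Snhg3, Snhg6, Snhg8 and Snhg12 carry small nucleolar RNAs (snoRNAs) in their introns. Counts were found for 8 of the 9 among the 28222 genes of the table, and Snhg3 was not analysed here. The rule that lists them uses their names and no threshold on their values. Members and the gene lists set beside them were chosen with earlier results of these data known.

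The 11 libraries of polyadenylated RNA came from cells of young mice of 3 to 5 months and old mice of 18 to 22 months, all kept at 2% oxygen in αMEM with serum, with no other treatment, strain or genotype named in the labels. By the batch letters of the labels the groups are A young (n = 4), B young (n = 2), B old (n = 2) and C old (n = 3). Only batch B held both ages, so that in any comparison of C old with a young group, age and batch cannot be told apart. Nothing states that the libraries of a group came from separate animals, in which case the p-values measure the spread between these libraries, which may be technical.

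Malat1 is an abundant nuclear RNA that gathers at nuclear speckles, the stores of splicing factors, and Neat1 is the RNA around which paraspeckles are built. The long Neat1 RNA and Malat1 are cut at their end by RNase P and are closed by a triple helix in place of a poly(A) tail, whereas the short Neat1 RNA is polyadenylated. Small nucleolar RNAs guide the methylation and pseudouridylation of ribosomal RNA, and most of them are cut out of introns. The spliced exons of their host genes often start with a run of pyrimidines, as do the mRNAs of the translation machinery (TOP mRNAs), and many host RNAs are removed by nonsense-mediated decay (NMD) once they are translated.

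In the GRCm38 annotation, Malat1 (ENSMUSG00000092341, chr19:5795690-5802672, minus strand) and Neat1 (ENSMUSG00000092274, chr19:5824708-5845478, minus strand) are neighbours and each is covered by a single exon, of 6983 and 20771 bases. Their ends are shown because the libraries were made from polyadenylated RNA. The Malat1 stretch lies inside the annotated transcript, at bases 6650 to 6709 of 6983, with its run of 12 A in capitals. Where the Malat1 RNA is cut was not measured. The other stretches are the last bases of the long Neat1 transcript, with a run of 5 A in capitals, and of the short one of 3004 bases, with the polyadenylation signal in capitals.
Malat1: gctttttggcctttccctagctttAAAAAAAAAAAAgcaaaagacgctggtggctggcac
Neat1 long: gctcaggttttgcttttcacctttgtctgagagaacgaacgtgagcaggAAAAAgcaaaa
Neat1 short: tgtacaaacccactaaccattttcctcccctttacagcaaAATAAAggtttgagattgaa
The short Neat1 RNA lies within the long one, and the counts were given per gene, so that the Neat1 values below hold both.

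The host genes were Gas5 (ENSMUSG00000053332, chr1:161034422-161038539, plus), Zfas1 (ENSMUSG00000074578, chr2:167062934-167065862, plus), Snhg1 (ENSMUSG00000108414, chr19:8723475-8726443, plus), Snhg6 (ENSMUSG00000098234, chr1:9941959-9944118, minus), Snhg8 (ENSMUSG00000104960, chr3:123507552-123508404, minus) and Snhg12 (ENSMUSG00000086290, chr4:132308623-132311024, plus). The annotation places 10 snoRNA entries within Gas5, 8 within Snhg1, 5 within Snhg12, 3 within Zfas1 and 1 each within Snhg6 and Snhg8. None of these 28 entries was among the 91 snoRNA genes of the table used, and the 91 together received 26 to 94 counts in a library, so that the snoRNAs themselves were not measured. A pair of embedded snoRNAs shows what the introns of the hosts carry, with the C box (TGATGA) and the D box (CTGA) in capitals.
Snord47 (Gas5, chr1:161038082-161038158): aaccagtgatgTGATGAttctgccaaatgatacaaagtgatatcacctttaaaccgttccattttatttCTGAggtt
Snord99 (Snhg12, chr4:132310691-132310764): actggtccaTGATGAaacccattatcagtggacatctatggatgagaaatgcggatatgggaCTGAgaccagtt

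The start regions of the hosts are shown because a pyrimidine run at the start is the feature they are known to share with TOP mRNAs. RefSeq windows on GRCm38.p6 were found for Gas5, Zfas1, Snhg1, Snhg8, Snhg12 and Malat1 among the measured members. Each line gives 30 bases before the annotated start and 20 bases from it on, on the strand of the gene, with the longest unbroken run of C or T within 20 bases of the start in capitals. For Gas5 the start at 161035166 of its annotated starts was taken.
Gas5: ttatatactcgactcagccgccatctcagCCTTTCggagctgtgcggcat
Snhg12: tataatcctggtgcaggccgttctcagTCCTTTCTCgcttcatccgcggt
Snhg8: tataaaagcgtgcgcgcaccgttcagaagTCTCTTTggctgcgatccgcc
Snhg1: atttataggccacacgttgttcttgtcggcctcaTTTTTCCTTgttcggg
Zfas1: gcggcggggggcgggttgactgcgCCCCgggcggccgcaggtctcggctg
Malat1: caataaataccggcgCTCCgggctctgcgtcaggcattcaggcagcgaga
The run was 9 bases in Snhg12 and Snhg1, a length reached by 10.7% of 32851 windows. It was 7 bases in Snhg8, reached by 24.3%, and 6 bases in Gas5, reached by 37.5%, against a median of 5 over all windows. At the other Gas5 start, 161034601, the run was 3 bases. Zfas1 and Malat1 had runs of 4 bases, which 78.6% of windows reached. The runs of Zfas1 and Malat1 lay wholly before the annotated start. That of Snhg1 began 4 bases after the start, and those of Snhg12, Snhg8 and Gas5 (at 161035166) spanned it. A run is a description of these letters and not of how the RNA is translated.

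Libraries held 11969336 to 20315934 counts. Levels are CPM, counts divided by library totals that were scaled with TMM factors (which align the bulk of the genes between libraries), and their errors are SDs over libraries. The rarest members received at least 77 counts in every library, and Malat1 received 1082 to 20918. All 12 MSC markers were found in every group, and so were all 13 leukocyte markers, which summed to 131 to 156 CPM in C old and to 383 to 1453 CPM in the other libraries, with no marker at 0 throughout a group. Long noncoding genes took 0.96% to 1.03% of all counts in C old and 0.53% to 0.64% elsewhere. The mitochondrial share of counts was 1.28% to 1.37% in C old and spread from 1.33% to 3.74% between the B old libraries. A change of a level in these bulk samples can come from fewer cells of a type or from less RNA per cell, and these cannot be told apart.

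Levels of different genes were compared per kilobase of merged exons. In these libraries of polyadenylated RNA, the levels of Malat1 and the long Neat1 RNA, which lack a poly(A) tail, depend on their capture. Their places in the orders below are those of captured RNA, and whether capture differed between the batches was not tested. In A young, Gas5 had the highest level of the members with 96.2 ± 10.1 CPM per kb (SD, n = 4). Snhg8 followed with 41.0 ± 7.99 and Snhg12 with 38.0 ± 4.80 CPM per kb, and these neighbours did not differ beyond their spread. Malat1 had 14.5 ± 1.98, Snhg6 13.6 ± 1.18, Snhg1 10.6 ± 1.89, Zfas1 10.4 ± 2.10 and Neat1 6.18 ± 0.75 CPM per kb, where Malat1 and Snhg6, and also Snhg1 and Zfas1, lay within their spread. In C old, Malat1 was first with 169 ± 27.2 and Gas5 second with 37.0 ± 1.24 CPM per kb (n = 3). The other members lay between 5.09 and 8.92 CPM per kb there, with Neat1, Snhg1 and Snhg12 within their spread. The merged exons of the hosts hold retained introns, and with the longest transcript as the length Snhg12 (59.4 CPM per kb) came before Snhg8 (45.0) in A young.

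**Figure D1:**
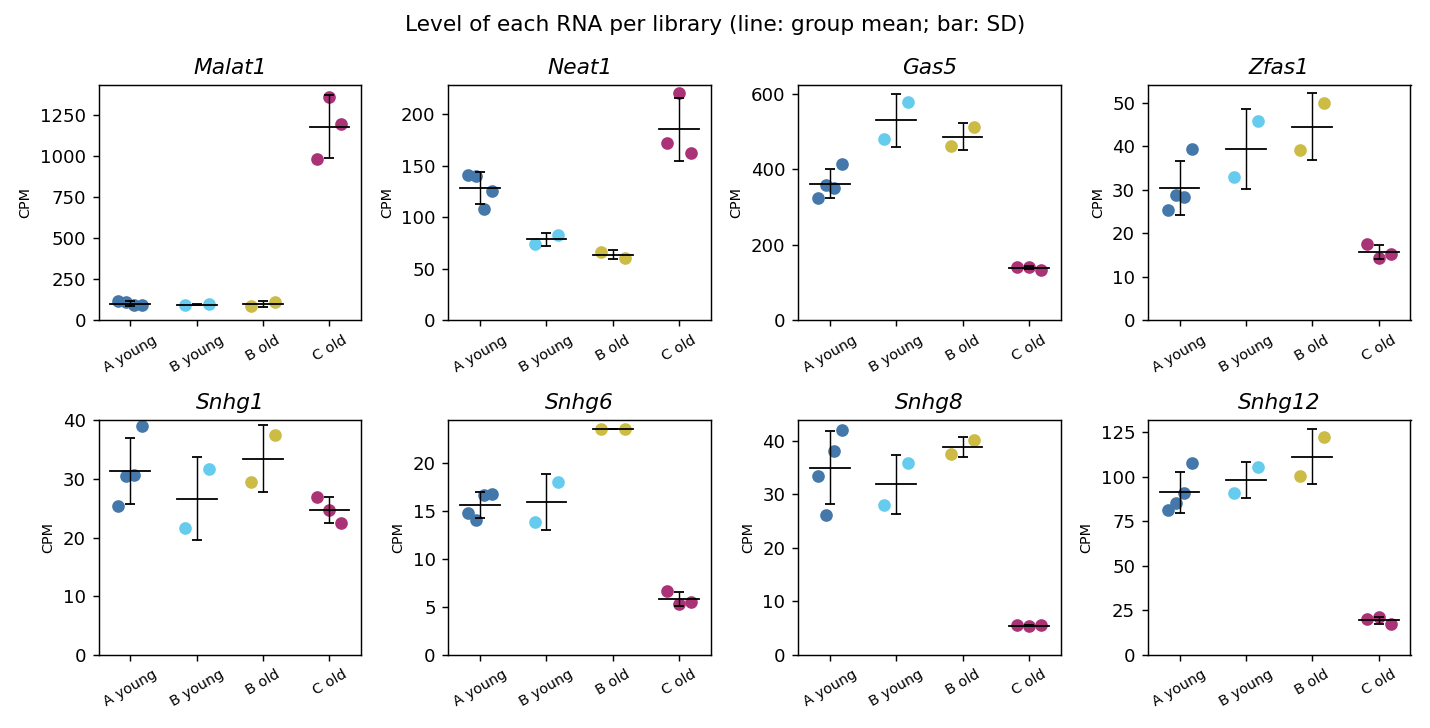
CPM of each RNA (vertical axis, from 0) in the libraries of the 4 groups (horizontal axis), each point a library, with the group mean as a line and the SD as a bar. Malat1 lay between 983 and 1361 CPM in C old and at or below 115 CPM in all other libraries, while Gas5, Zfas1, Snhg6, Snhg8 and Snhg12 were lowest in C old.

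The first comparison asked whether age alone moved these RNAs, and it rests on batch B. None of the 8 members passed the threshold between old and young cells, and their log2 differences lay between -0.29 and 0.58. Over all 16132 genes tested, 2.23% were called (0.694% higher and 1.54% lower). Of the members, 1 had an unadjusted edgeR p under 0.05, as had 2597 of all 16132 genes. DESeq2 called 1 member among 640 genes called in all. In both cases the member was Snhg6. The median log2 difference was 0.24 over the 6 hosts, against 0.0044 over all genes. It was 0.14 in the decile of genes with the shortest transcripts, to which Snhg6 and Snhg8 belonged. With a correction for transcript length and GC content the 6 hosts lay between -0.25 (Gas5) and 0.37 (Snhg6), and none was called.

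Malat1 had 94.1 and 96.3 CPM in the B young libraries and 87.2 and 112 CPM in the B old libraries. The old libraries lay on either side of the young ones, and the log2 difference was 0.075 ± 0.17 (SE, edgeR adjusted p = 0.867). Neat1 had 74.1 and 82.6 CPM in B young and 66.4 and 60.4 CPM in B old. Both old libraries were below both young ones, with a log2 difference of -0.29 ± 0.16 that did not pass the threshold (edgeR adjusted p = 0.371).

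Gas5, named for its accumulation in growth-arrested cells, had 480 and 580 CPM in B young and 462 and 512 CPM in B old, which overlapped (log2 difference -0.11 ± 0.13, edgeR adjusted p = 0.72). Snhg6 had 13.9 and 18.0 CPM in B young and 23.6 CPM in each of the B old libraries. Here the old libraries were both above the young ones, and the log2 difference of 0.58 ± 0.16 was the largest among the members (edgeR adjusted p = 0.077). Snhg6 shares 127 exon bases with Mcmdc2 on the other strand, and reads there cannot be assigned. Snhg6 was called by DESeq2 (0.59, adjusted p = 0.0477) and without the filter on low counts (0.57, edgeR adjusted p = 0.0401). It was not called with the correction for transcript length and GC content (0.37, edgeR adjusted p = 0.16) or in batch B alone (0.58, edgeR adjusted p = 0.269). The call thus depends on these choices. The log2 difference of Snhg6 was 0.78 without B young replicate 2 and 0.39 without B young replicate 1. Over the alternatives for Snhg6 other than leaving out a library the adjusted p ran from 0.0401 to 0.66. The value of 0.66 came from the edgeR fit without the batch term, where age and batch are mixed. The log2 difference was -0.26 in that fit.

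Snhg8 had 27.9 and 35.8 CPM in B young and 37.5 and 40.1 CPM in B old, which did not overlap (log2 difference 0.30 ± 0.18, edgeR adjusted p = 0.433). Neat1, Snhg6 and Snhg8 were the 3 members whose age groups did not overlap, where 39.8% of all genes did the same. Snhg1 (0.34 ± 0.20), Zfas1 (0.19 ± 0.20) and Snhg12 (0.19 ± 0.14) overlapped between the ages on the log2 scale, with edgeR adjusted p between 0.417 and 0.683.

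The related lists of RNAs and proteins were also without a call between the ages of batch B. None was called among 11 other snoRNA hosts, 17 other named long noncoding RNAs, 11 paraspeckle proteins and 10 nuclear speckle proteins. The same held for 14 snoRNP proteins (which bind snoRNAs), 14 NMD factors and 15 TOP mRNAs, most of which encode translation factors. The medians of these lists ran from -0.094 to 0.30 on the log2 scale. None of the 15 cell cycle genes (median 0.50) and none of the 13 leukocyte markers (median 0.69) was called, while of the 12 MSC markers Pdgfra (-0.86 ± 0.15) and Nt5e (-1.34 ± 0.25) fell with age (edgeR adjusted p = 0.0059 and 0.00932).

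**Figure D2:**
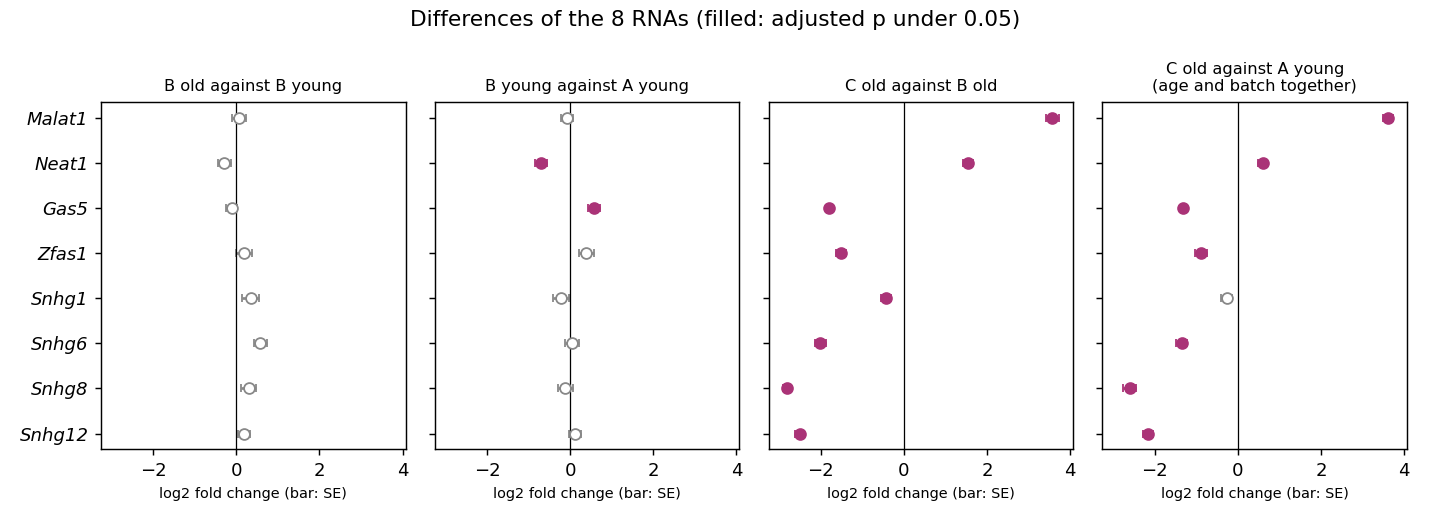
Log2 fold change of the 8 RNAs (horizontal axis, bars are SE) in the 4 comparisons (panels), with filled points for an edgeR adjusted p under 0.05. No point is filled between the ages of batch B, 2 are filled between the young groups of batches A and B, 8 between the old groups, and 7 where age and batch differ together.

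The second comparison asked how far the batches differed at the same age, first in the young cells of batches A and B. Neat1 was lower and Gas5 higher in batch B, and the other 6 members were not called. Of 14840 genes, 18.1% were called (9.39% higher and 8.71% lower), and 40.6% did not overlap between the groups, as Neat1 and Gas5 did not.

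Neat1 had 141, 140, 108 and 125 CPM in the A young libraries and 74.1 and 82.6 CPM in the B young libraries. All A young libraries were above both B young libraries, and Neat1 was 1.62-fold lower in B young (log2 -0.70 ± 0.14, edgeR adjusted p = 0.00703). Gas5 had 324, 359, 350 and 414 CPM in A young and 480 and 580 CPM in B young. It was higher in both B young libraries, by 0.57 ± 0.14 on the log2 scale (edgeR adjusted p = 0.0174), and the call was lost without A young replicate 3 (0.55, adjusted p = 0.0629), without B young replicate 2 (0.41, adjusted p = 0.138) and with a correction for transcript length and GC content (0.33, adjusted p = 0.0565). The same correction brought Neat1 to -0.39 (edgeR adjusted p = 0.1).

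Malat1 had 89.2 to 115 CPM in A young, a range that held both B young libraries (log2 difference -0.073 ± 0.14, edgeR adjusted p = 0.744). Zfas1 had 25.3 to 39.4 CPM in A young and 33.0 and 46.0 CPM in B young, with a log2 difference of 0.39 ± 0.19 that did not pass (edgeR adjusted p = 0.159). Without B young replicate 1, Zfas1 passed (0.62, edgeR adjusted p = 0.0432). Snhg1, Snhg6, Snhg8 and Snhg12 differed by -0.22 to 0.12 and overlapped between the groups. With the length and GC correction Snhg6 turned to -0.52 and was called (edgeR adjusted p = 0.0248), and Snhg1 (-0.53) and Snhg8 (-0.45) moved without a call (edgeR adjusted p = 0.0528 and 0.0537).

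Of the related lists, 4 of 15 TOP mRNAs and 4 of 14 snoRNP proteins were higher in B young and none was lower. Of 16 other named long noncoding RNAs, Meg3 (an imprinted long noncoding RNA, -0.64 ± 0.17, edgeR adjusted p = 0.0208) and Firre (a nuclear RNA of the X chromosome, -0.91 ± 0.26, edgeR adjusted p = 0.031) were lower in B young. The cell cycle list was lower in B young for 14 of 15 genes (median -0.85), and 5 of 13 leukocyte markers were lower (median -0.82). The part of these lists in the differences of Neat1 and Gas5 was not tested.

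The old groups of batches B and C, which have the same labelled age, were compared next. Malat1 was 11.9-fold and Neat1 2.93-fold higher in C old, and all 6 snoRNA hosts were lower, from 1.35-fold for Snhg1 to 7.05-fold for Snhg8. All 8 members were called and did not overlap between the groups. The batches differed widely, and of 15651 genes tested 64.7% were called (32.1% higher and 32.6% lower) and 76.2% did not overlap. Of the genes called, 49.6% were higher, and 62.9% with libraries scaled by total counts. The median log2 difference was 2.56 over Malat1 and Neat1 and -1.91 over the 6 hosts, against 0.023 over all genes.

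Malat1 had 87.2 and 112 CPM in B old and 983, 1361 and 1196 CPM in C old. Each C old library was several times above each B old library, and the log2 difference was 3.57 ± 0.15 (edgeR adjusted p = 4.16e-09). Malat1 took 0.115% to 0.158% of all counts of the C old libraries. Neat1 had 66.4 and 60.4 CPM in B old and 172, 220 and 163 CPM in C old. The groups were far apart, with a log2 difference of 1.55 ± 0.12 (edgeR adjusted p = 3.66e-07) that came down to 0.63 (edgeR adjusted p = 0.000736) with the correction for transcript length and GC content. The same correction left Malat1 at 3.25.

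Gas5 had 462 and 512 CPM in B old and 142, 142 and 134 CPM in C old. It was 3.49-fold lower in C old, and the libraries within each group were close (log2 -1.80 ± 0.068, edgeR adjusted p = 1.89e-09). Snhg12 fell from 100 and 122 CPM in B old to 20.04, 21.2 and 17.1 CPM in C old, 5.69-fold (log2 -2.51 ± 0.10, edgeR adjusted p = 2.81e-09). Snhg8 fell from 37.5 and 40.1 CPM to 5.51, 5.40 and 5.55 CPM (log2 -2.82 ± 0.10, edgeR adjusted p = 1.43e-09). Snhg8 and Snhg12 were thus the hosts with the largest differences.

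Snhg6 had 23.6 CPM in both B old libraries and 6.68, 5.27 and 5.55 CPM in C old, which was 4.02-fold lower (log2 -2.01 ± 0.13, edgeR adjusted p = 7.33e-08). Zfas1, whose RNA overlaps the start of the Znfx1 gene on the other strand, had 39.1 and 50.0 CPM in B old and 17.5, 14.3 and 15.1 CPM in C old (log2 -1.50 ± 0.12, edgeR adjusted p = 4.51e-07). Snhg1 had 29.5 and 37.4 CPM in B old and 27.0, 24.7 and 22.5 CPM in C old. The Snhg1 groups were separated by a narrow gap, and its log2 difference of -0.43 ± 0.11 (edgeR adjusted p = 0.00525) was the smallest among the members. It was no longer called when libraries were scaled by total counts (-0.24, adjusted p = 0.0904), without B old replicate 2 (-0.25, adjusted p = 0.0581) and in a fit of all 4 groups (-0.43, adjusted p = 0.0556).

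**Figure D3:**
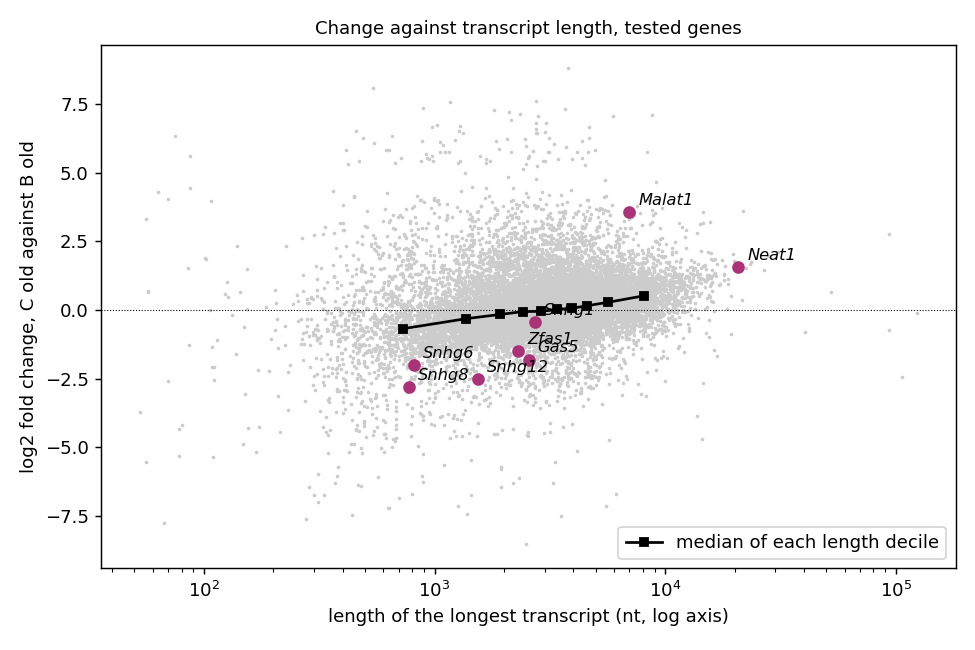
Log2 fold change of C old against B old (vertical axis) against the length of the longest transcript (horizontal axis, log scale), with tested genes in grey, the members in purple and the median of each length decile of the genes as squares. The medians rise from -0.68 to 0.52 with length, Malat1 lies above the squares and all 6 hosts lie below them.

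Short transcripts were lower and long transcripts higher in C old. The median log2 difference was -0.68 in the decile of genes with the shortest transcripts and 0.52 in the decile with the longest. Snhg6 and Snhg8 (816 and 776 bases) belonged to the shortest decile, and Malat1 and Neat1 to the longest. With the correction for length and GC content, the log2 differences were -1.56 for Snhg6, -2.34 for Snhg8, -2.32 for Snhg12, -1.78 for Gas5, -1.44 for Zfas1 and -0.43 for Snhg1, and all were still called by edgeR. Libraries scaled by total counts moved the median of all genes up by 0.19 in this comparison and left every member but Snhg1 on its side of the threshold.

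The genes that start beside the hosts on the other strand did not all go with them. Zbtb37, a zinc finger gene whose start overlaps the Gas5 gene without a shared exon base, had 11.2 ± 0.22 CPM in B old (SD, n = 2) and 24.7 ± 3.31 CPM in C old (n = 3). It rose by 1.14 ± 0.13 on the log2 scale (edgeR adjusted p = 1.05e-05), where Gas5 fell. Znfx1, an antiviral helicase whose exons share 82 bases with Zfas1, had 37.2 ± 2.65 and 44.8 ± 3.09 CPM and rose by 0.27 ± 0.084 (edgeR adjusted p = 0.0152), where Zfas1 fell. Slc3a2, an amino acid transporter chain that starts 106 bases from Snhg1, had 260.1 ± 4.16 and 160 ± 6.77 CPM and fell by 0.70 on the log2 scale (edgeR adjusted p = 1.53e-06), together with Snhg1. Whether strand was used in counting is not given in the sources used here, so that reads of the bases shared by Zfas1 and Znfx1 cannot be assigned. The same holds for the 127 exon bases that Snhg6 shares with Mcmdc2, which received 0 to 4 counts in a library and was not tested. Frmd8os, which starts 145 bases from Neat1, received at most 1 count in a library. Against A young, Zbtb37 was also higher in C old (1.07 ± 0.11, edgeR adjusted p = 3.65e-06), whereas Znfx1 was lower (-0.39 ± 0.088, edgeR adjusted p = 0.00189).

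Other snoRNA hosts went in both directions. Of 11 tested, 5 were higher in C old and 2 lower, with a median of 0.28. Snhg11 (3.83 ± 0.23, edgeR adjusted p = 6.27e-08) and Snhg17 (1.48 ± 0.11, edgeR adjusted p = 2.54e-07) were higher, and Snhg18 (-1.01 ± 0.10, edgeR adjusted p = 3.09e-06) and Epb41l4aos (-1.66 ± 0.20, edgeR adjusted p = 1.83e-05) were lower. The 12 other hosts of the table were also scarce, and together they summed to 93.9 to 108 CPM in C old and 67.5 to 89.8 CPM elsewhere. The 6 hosts described here summed to 200 to 218 CPM in C old and 504 to 817 CPM elsewhere, of which Gas5 was the larger share.

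Of the other long noncoding RNAs that were called, more were higher than lower in C old, as Malat1 was higher. Of 17 tested from the list, 11 were higher in C old and only Pvt1 (-0.80 ± 0.092, edgeR adjusted p = 1.1e-05) was lower, with a median of 1.41. Meg3 rose by 3.57 ± 0.076 (edgeR adjusted p = 4.46e-11) and Firre by 3.23 ± 0.12 (edgeR adjusted p = 1.99e-09). Among all 1135 long noncoding genes tested other than the members, 40% were higher and 6.52% lower in C old with a median of 0.87, whereas among 13470 protein coding genes 32.7% were higher and 34% lower with a median of 0.0050.

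All 15 TOP mRNAs of the list, most of which encode translation factors, were lower in C old, as the 6 hosts were, with a median of -1.10. Eef1b2, a subunit of an elongation factor, fell by 2.10 on the log2 scale (edgeR adjusted p = 2.65e-09), and Rack1, a protein of the small ribosomal subunit, fell by 1.91 (edgeR adjusted p = 2.68e-09). Of 14 snoRNP proteins, 9 were lower and none higher (median -0.41), among them Snu13 (-0.95 ± 0.068, edgeR adjusted p = 2.3e-07), which binds box C/D snoRNAs, and Nhp2 (-1.17 ± 0.10, edgeR adjusted p = 6.47e-07), which binds box H/ACA snoRNAs. Of 14 NMD factors, 7 were higher and 3 lower (median 0.19). Smg1, the kinase of the pathway, rose by 1.29 ± 0.11 and Upf3b by 1.12 ± 0.12, while the exon junction proteins Eif4a3 (-0.77 ± 0.064) and Magoh (-0.86 ± 0.10) fell, each with an edgeR adjusted p of 1.43e-05 or less.

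The proteins of the nuclear bodies split in both directions. Of 11 paraspeckle proteins, 5 were higher and 2 lower (median 0.17). Sfpq, a core paraspeckle protein, rose by 0.56 ± 0.075, while Hnrnpk (-0.65 ± 0.062) and Nudt21 (-0.53 ± 0.071) fell, with edgeR adjusted p of 4.34e-05 or less. Of 10 nuclear speckle proteins, 5 were higher and 3 lower (median 0.31). The splicing factors Srsf5 (1.93 ± 0.072) and Srrm2 (1.55 ± 0.073) rose, and Srsf3 (-0.78 ± 0.061) and Srsf7 (-0.37 ± 0.066) fell, with edgeR adjusted p of 0.000351 or less.

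Markers of other states moved in the same comparison. All 13 leukocyte markers were lower in C old (median -2.71), with Lyz2 at -2.91 ± 0.12 and Ctss at -3.63 ± 0.19 (edgeR adjusted p = 3.98e-09 and 1.66e-08). Of 15 cell cycle genes, 11 were higher and none lower (median 0.58), with Mki67 at 2.39 ± 0.12 (edgeR adjusted p = 1.58e-08). Of 12 MSC markers, 4 were higher and 3 lower. The part of the leukocyte and cell cycle genes in the changes of the members was not tested.

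**Figure D4:**
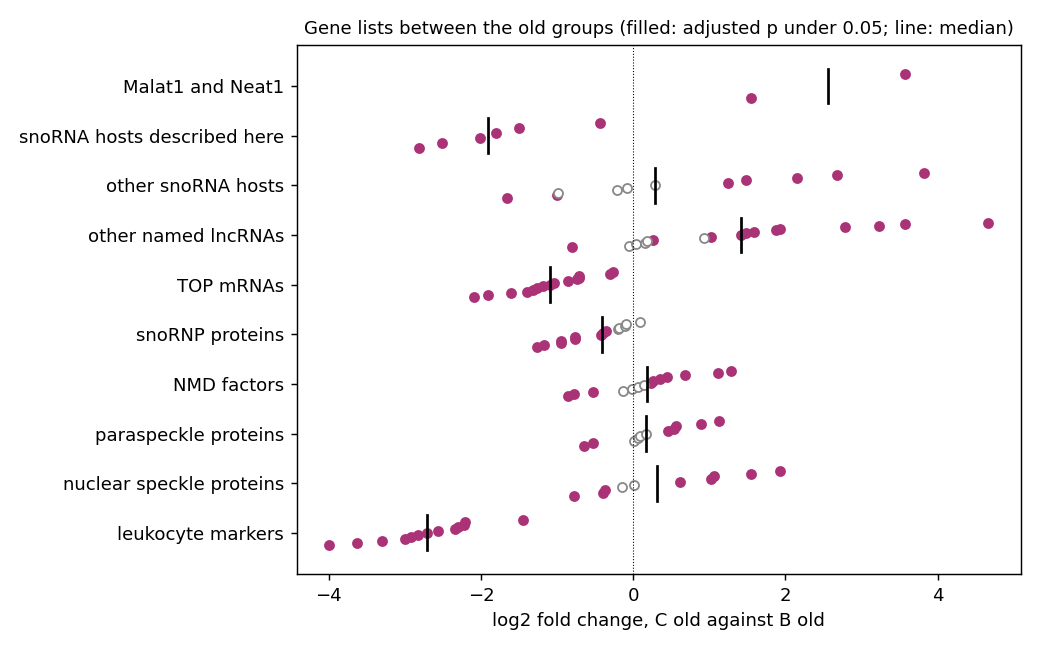
Log2 fold change of C old against B old (horizontal axis) for the genes of each list (rows), with filled points for an edgeR adjusted p under 0.05 and a line at the median of the list. The 6 snoRNA hosts and the 15 TOP mRNAs lie below 0, while other snoRNA hosts lie on both sides and other long noncoding RNAs mostly above 0.

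The last comparison set C old against A young, where age and batch cannot be told apart. It uses the same C old libraries as the comparison above. Malat1 was 12.2-fold higher in C old (log2 3.61 ± 0.13, edgeR adjusted p = 8.62e-10), and Neat1, with 163 to 220 CPM against 108 to 141 CPM, was 1.51-fold higher (log2 0.60 ± 0.11, edgeR adjusted p = 0.000529). With the correction for transcript length and GC content the difference of Neat1 was -0.039 (edgeR adjusted p = 0.775). In total 7 of the 8 members were called, 2 higher and 5 lower, where 63.8% of 15021 genes were called (32% higher and 31.9% lower). The groups did not overlap for these 7 members, and for 64.5% of all genes.

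Gas5 was 2.48-fold lower in C old (log2 -1.31 ± 0.089, edgeR adjusted p = 1.28e-07), and Zfas1, Snhg6, Snhg12 and Snhg8 were lower by -0.89 ± 0.15, -1.34 ± 0.13, -2.16 ± 0.11 and -2.60 ± 0.16 on the log2 scale (edgeR adjusted p of 0.000165 or less). Snhg1 had 25.4, 30.5, 30.7 and 38.9 CPM in A young and 22.5 to 27.0 CPM in C old. These ranges overlapped, and the difference of -0.27 ± 0.13 was not called (edgeR adjusted p = 0.0865). Scaling by total counts moved the median of all genes by 0.29 and Snhg1 to 0.023 (edgeR adjusted p = 0.888), whereas it was called without A young replicate 1 (-0.37, edgeR adjusted p = 0.00799), without the filter (-0.28, edgeR adjusted p = 0.0157) and with the length and GC correction (-0.72, edgeR adjusted p = 0.000262). Of the TOP mRNAs, 14 of 15 were lower in C old and none higher, of 10 other snoRNA hosts 8 were higher and 2 lower, and all 13 leukocyte markers were lower. Of 14 snoRNP proteins 4 were higher and 5 lower, and of 15 cell cycle genes 5 were higher and 1 lower (median 0.053).

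Within the groups, the hosts often deviated from their group mean in the same direction in a library. All 6 hosts were above their group mean in A young replicate 4, B young replicate 2, B old replicate 2 and C old replicate 1, and all 6 were below it in A young replicates 1 and 2, B young replicate 1 and B old replicate 1. The hosts split in A young replicate 3 and C old replicate 2, with 3 above and 3 below the mean, and in C old replicate 3, with 1 above and 5 below. After the group means were removed, Pearson's r over the 11 libraries between pairs of hosts ran from 0.50 (Snhg6 and Snhg12) to 0.98 (Gas5 and Snhg1). It was 0.94 for Gas5 and Zfas1, and Snhg6 and Snhg8 went less closely with Gas5 (0.59 and 0.58). Between Malat1 and the hosts it ran from -0.63 (Snhg6) to -0.092 (Snhg12), with -0.15 for Gas5, and it was 0.56 for Malat1 and Neat1. These values are descriptions, since the points share libraries and their scaling and the groups of 2 libraries give mirrored deviations. Whether other genes deviated in the same way was not tested.

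**Figure D5:**
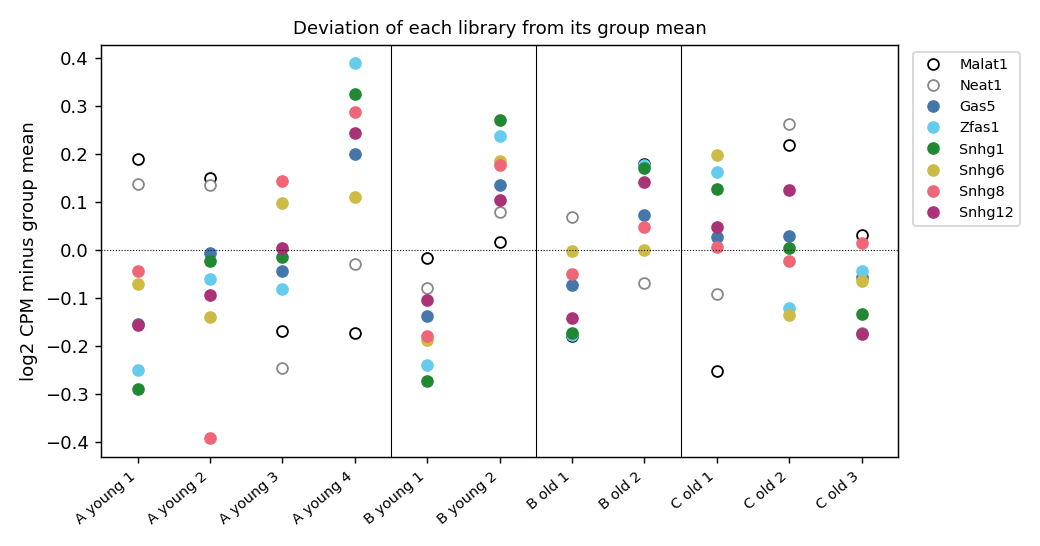
Deviation of log2 CPM from the group mean (vertical axis) for each library (horizontal axis), with the 6 snoRNA hosts as filled points and Malat1 and Neat1 as open points. In A young replicate 4, B young replicate 2, B old replicate 2 and C old replicate 1 all 6 hosts lie at or above 0, while Malat1 lies on the other side in A young replicate 4 and C old replicate 1.

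The genes most like Malat1, Neat1 and Gas5 across the 11 libraries were found by Pearson's r of log2 CPM. For Malat1 they were the splicing factor gene Luc7l2 (0.997), Mapk8ip3 (0.996) and Mdm4 (0.995), and for Neat1 they were 2900089D17Rik (0.968), Rilp (0.966) and Ldb1 (0.965). For Gas5 they were Nbdy (0.993), Rab18 (0.993) and Tm2d2 (0.992). The points share the libraries and their scaling, and for Malat1, Neat1 and Gas5 alike the 3 C old libraries lay outside the range of all others.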

How the data were processed

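Polyadenylated RNA was measured in 11 libraries, grouped by the age and batch in their labels. The authors deposited a table of raw counts per Ensembl gene, without normalisation. The build is GRCm38 (mm10) per the submitters' processing notes. The aligner, the counter and the use of strand are not given in the sources used here. Identifiers were matched to GENCODE M21 (28179 of 28222), and 0 columns were left out. Within each group no library differed so little from another that it could be a duplicate, and pairs across groups were not checked.

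All counts were tested with edgeR 4.0.16 (quasi-likelihood, TMM factors, filterByExpr with a minimum count of 5, two-sided) in R 4.3.3, with Benjamini-Hochberg adjustment over all tested genes and a threshold of 0.05. The age fit used all 11 libraries and a batch term, and the other comparisons used their own groups. SEs were derived from F statistics, and log2 CPM used a prior count of 2. The fits were tested on simulated data. Sequences come from RefSeq (GRCm38.p6) and GENCODE.

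Alternatives were limma-trend (3.58.1), DESeq2 (1.42.0), RLE factors, total counts, a higher filter, no filter, a replicate block, a loess correction for length and GC content, other sets of libraries, and leaving out each library. Named were all members, at most 2 called genes per list and direction with the smallest p, genes that overlap or start within 1 kb of a member on the other strand, and the 3 genes most like Malat1, Neat1 and Gas5. Members and lists were chosen with earlier results of these data known. The values of 1 list gene are not reported here.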

Additional observations from a re-analysis of the deposited data

How the results depend on the processing

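Between the old groups, 109 of 112 refits of single members kept direction and side of the threshold, and the others were the Snhg1 fits given above. Between C old and A young this held for 123 of 128, between B young and A young for 106 of 120 and between the ages of batch B for 154 of 168. The 360 genes called there became 640 with DESeq2, 1094 without a filter, 2641 without the batch term, 123 with batch B alone and 84 to 2007 when a library was left out (84 without B old replicate 1, 2007 without B young replicate 2), and the 0 members called became 1 with DESeq2, without a filter and without the batch term, and 0 to 1 when a library was left out. Without the batch term, age and batch are mixed, and Neat1 was at 0.32, Zfas1 at -0.28, Snhg1 at -0.055, Snhg6 at -0.26, Snhg8 at -0.84 and Snhg12 at -0.72, with Malat1 called at 2.95 (edgeR adjusted p = 0.0122). Leaving out a library gave -0.12 to 0.25 for Malat1, -0.046 to 0.45 for Zfas1 and -0.25 to 0.037 for Gas5.

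For B young against A young, the 2686 genes called became 4171 in a fit of all 4 groups and 511 (without B young replicate 2) to 4031 (without B young replicate 1) when a library was left out, and the 2 members called became 1 with the length and GC correction (Snhg6, with Neat1 and Gas5 both lost) and 1 to 3 when a library was left out. Reversed were Malat1 with total counts (0.0067), Snhg6 (-0.52, edgeR adjusted p = 0.0248) and Snhg12 (-0.0019) with the length and GC correction, and, when a library was left out, Snhg6 (-0.16 to 0.23), Snhg1 (-0.53 to 0.040) and Snhg8 (-0.32 to 0.060). Genes called ran from 8766 to 10324 for C old against B old and from 8550 to 10079 for C old against A young, where Snhg1 reversed with total counts (0.023) and Neat1 with the length and GC correction (-0.039). The cause of these changes was not tested.

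With total counts, the share of higher calls moved from 31.1% to 44.8% for age, from 51.9% to 66.4% for B young against A young, from 49.6% to 62.9% for C old against B old and from 50.1% to 72.5% for C old against A young.

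Same-numbered libraries did not deviate together (correlations from -0.11 to 0.04), so that there was no sign that the numbers pair the samples. Groups this small cannot settle whether they do. With a replicate block, 294 genes and 0 members were called for age, 9154 genes and 8 members for C old against B old and 9277 genes and 7 members for C old against A young. For B young against A young, 729 genes and 1 member were called with the block, Gas5 was at 0.65 (edgeR adjusted p = 0.148) and Snhg8 at 0.11.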
